A study of Mus musculus with 15 samples.

Results

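The potassium channel genes of the mouse were described across 3 Tbr1 genotypes in embryonic brain. Members were taken by symbol with no filter on expression, although earlier results of these data were known when the set was chosen. They were the protein-coding genes named Kcn, then a subfamily letter or letters, then a number, with a further letter allowed as in Kcne1l. The deposited table held 90 such genes among its 19475 genes. Another 3 protein-coding symbols of this form in the GENCODE M21 annotation, Kcna10, Kcnj1 and Kcnk16, had no row and were not analysed here. By pore type the members comprised 39 voltage-gated, 14 inward-rectifier and 13 two-pore-domain channel genes, together with 16 genes for auxiliary subunits. The other 8 formed the calcium- or sodium-activated class, which counts Kcnu1 by relation although its channel is not opened by these ions.

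RNA-Seq was performed on brains of 15 C57BL/6J embryos at E16.5, with 5 wild-type (WT), 5 heterozygous (Tbr1+/K228E) and 5 homozygous (Tbr1K228E/K228E) embryos, each genotype with 3 females and 2 males. The K228E allele is a knock-in missense change in exon 1 of Tbr1, a T-box transcription factor gene of early-born cortical neurons, and is present in every cell of the carriers. Its neomycin cassette had been removed with protamine-Cre, and no homozygotes were found when young pups were genotyped. The study's text calls the tissue forebrain and the record of the samples calls it brain, and both are kept here. Values are normalized read counts, that is, estimated reads per gene divided by a size factor for each embryo. Tbr1 itself stood at 3537 ± 1049 (SD, n = 5) in WT, 6269 ± 1532 in Tbr1+/K228E and 11366 ± 3160 in Tbr1K228E/K228E embryos, and the lowest homozygote (7148) lay above the highest WT embryo (4871). Neighbouring genotypes overlapped, with the lowest heterozygote at 4738 and the highest at 8543. A missense allele leaves the transcript in place, so the mean level orders the genotypes but does not check the base change.

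Potassium channels let potassium leave or enter the cell along its gradient and so set the resting potential, repolarize the action potential and limit firing. Voltage-gated (Kv) channels assemble from several pore subunits, some of which are silent on their own and act only by joining Kv2 subunits. Inward rectifiers (Kir) hold the resting potential and buffer potassium in glia, two-pore-domain (K2P) channels carry leak current, and calcium- or sodium-activated channels couple potassium flow to ion entry. Auxiliary subunits shape the gating and surface delivery of the pores.

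The embryos differed in which tissue accompanied the forebrain. The 7 forebrain markers (among them Emx1, Emx2, Neurod6, Neurod2 and Bcl11b) were detected in every embryo, and their summed level ran from 19038 in WT embryo 4 and 21845 in Tbr1K228E/K228E embryo 2 to 46768 in Tbr1K228E/K228E embryo 3. The most abundant markers carry this sum, and Emx2, a small part of it, was highest of all embryos in Tbr1K228E/K228E embryo 2, at 751. Hox genes of the hindbrain and spinal cord, 12 in the list, summed to 0 in Tbr1+/K228E embryo 2 and to 3727 in Tbr1+/K228E embryo 1, with 3250 in WT embryo 4. The 4 choroid plexus markers ran from 103 to 23671 and the 6 meningeal markers from 392 to 31356. WT embryo 4 held the highest value of the 15 embryos for 27 of the 83 potassium channel genes tested, and Tbr1+/K228E embryo 2 held the lowest for 20. The same counts were not made over all tested genes, so they cannot be called particular to potassium channel genes. In bulk tissue, fewer cells of a type and less RNA per cell cannot be told apart.

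By the mean normalized read count over the 15 embryos, 7 members lay under 5, 15 from 5 to under 50, 39 from 50 to under 500, 23 from 500 to under 2000, and 6 reached 2000 or more. Genes differ in length, so levels were compared per kb of the gene's merged exons. Per kb the voltage-gated genes made up 56.5% ± 1.18 (SD, n = 5) of the summed WT level, the auxiliary genes 18.1% ± 0.972, the inward rectifiers 8.99% ± 0.314, the two-pore-domain genes 8.46% ± 0.239 and the calcium- or sodium-activated genes 7.95% ± 0.240. The 10 highest genes accounted for 39.8% of the sum, and the lowest 45 for 11.3%.

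**Figure D1:**
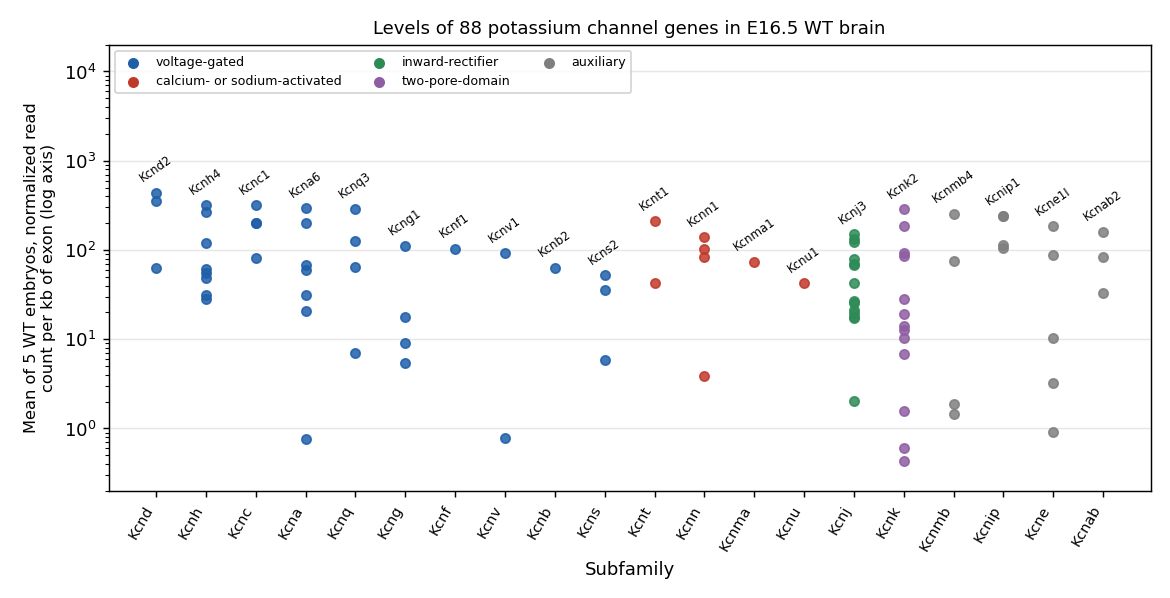
Mean level of 88 potassium channel genes in the 5 WT embryos, in normalized read count per kb of exon on a log axis, grouped by subfamily and coloured by class, with the highest gene drawn in each subfamily named. The voltage-gated subfamilies on the left hold the genes above 300, with Kcnd2 at 438.

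Among the most abundant members, Kcnd2, for the Kv4.2 subunit of dendritic A-type current, stood at 438 ± 105 per kb (SD, n = 5 WT embryos) and Kcnd3, for Kv4.3, at 351 ± 22.8. Their ranges overlapped, with WT Kcnd2 from 346 to 600.3 per kb. The next were Kcnh4 (320 ± 31.5), an ELK-type channel gene, Kcnc1 (317 ± 48.1), for the fast Kv3.1 channel, Kcna6 (295 ± 36.9), for axonal Kv1.6, Kcnk2 (288 ± 14.5), for the leak channel TREK-1, and Kcnq3 (287 ± 31.4), for the Kv7.3 subunit of the M-current that restrains repetitive firing. Neighbours among these 5 differed by less than 1 SD between embryos. Kcnmb4 (256 ± 22.1), the neuronal beta subunit of the BK channel, was the highest auxiliary gene. Kcnip1 (239 ± 41.1) and Kcnip3 (238 ± 24.7), which encode calcium-binding partners of Kv4, came next.

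In the other classes the leading genes were lower. Kcnt1, for the sodium-activated channel Slack, reached 212 ± 39.5 per kb, and Kcnj3, for the G protein-gated subunit GIRK1, reached 150 ± 13.6. Kcnj10, for the glial channel Kir4.1, stood at 132 ± 18.9 and Kcnj8, for the Kir6.1 pore found in pericytes, at 123 ± 11.3. Among the silent voltage-gated subunits Kcng1 (Kv6.1) was highest at 111 ± 22.6, followed by Kcnf1 (Kv5.1) at 104 ± 13.5 and Kcnv1 (Kv8.1) at 93.0 ± 8.48. Kcnma1, the BK pore gene, stood at 74.2 ± 12.8. Kcnb2, a gene for a Kv2 pore that silent subunits join, was below these at 63.6 ± 8.21.

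The 7 genes under a mean of 5 were Kcna7, Kcne1, Kcnk7, Kcnk15, Kcnk18, Kcnmb3 and Kcnv2. They were left out of the tests, and their means ran from 0.926 for Kcnk15 to 4.22 for Kcnv2. That left 83 members among 16507 tested genes.

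The summed level of the 90 genes did not separate the genotypes. It was 8825 ± 637 per kb in WT, 8579 ± 342 in Tbr1+/K228E and 8781 ± 375 in Tbr1K228E/K228E brains (SD, n = 5 each), which was 0.190%, 0.185% and 0.190% of all normalized reads when counted without length. Voltage-gated genes held 56.5%, 55.8% and 56.1% of the per-kb sum in WT, heterozygous and homozygous brains, differences smaller than the WT SD of 1.18 percentage points. The calcium- or sodium-activated share was 7.95% ± 0.240, 8.11% ± 0.171 and 8.32% ± 0.187, so the homozygous mean lay more than 1 SD above WT, a difference that was not tested. Shares of the auxiliary genes were 18.1%, 18.1% and 18.0%, of the inward rectifiers 8.99%, 9.31% and 8.98%, and of the two-pore-domain genes 8.46%, 8.70% and 8.59%.

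**Figure D2:**
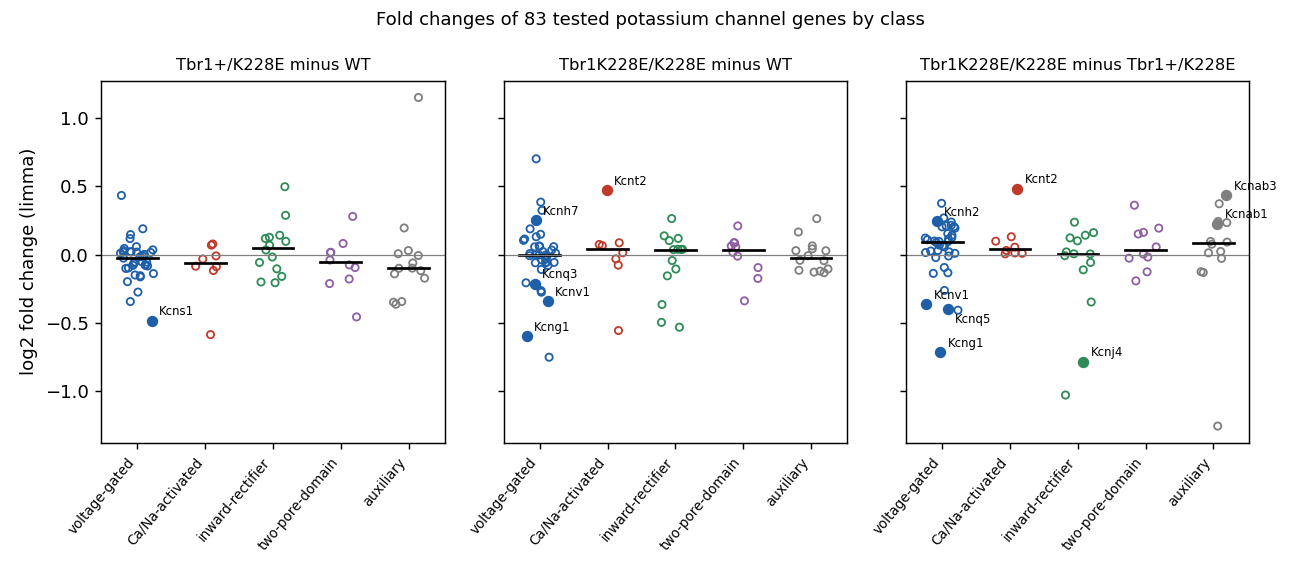
log2 fold change from limma for the 83 tested potassium channel genes in each of the 3 genotype comparisons, by class, with a bar at the class median. Filled, named points have an unadjusted p under 0.05, and none of them passed the adjusted threshold. Class medians lie between -0.10 and 0.09, while Kcnt2 stands at 0.47 and Kcng1 at -0.60 in homozygotes against WT.

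The comparison of Tbr1+/K228E with WT asked whether 1 mutant copy altered these genes. No member passed an adjusted p of 0.05 in the limma fit over all 15 embryos, against 0.0% of all tested genes (0 of 16507). An unadjusted p under 0.05 was found for 1 member of 83, where 1.79% of all tested genes met the same threshold (0.775% higher and 1.01% lower), and no member had genotypes that did not overlap, where 0.26% of all genes did. By sign, 32 members were higher and 51 lower in heterozygotes, against 48.8% of all tested genes higher, and the median log2 fold change was -0.04 over the members and -0.00 over all genes. Without WT embryo 4 the split was 40 higher and 43 lower and the median was -0.00, so the lean rested on that embryo.

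The single member under the unadjusted threshold was Kcns1, for the silent Kv9.1 subunit. Its values were 85.3, 71.0, 81.7, 106 and 139.9 in WT and 77.8, 52.6, 61.7, 82.4 and 63.6 in Tbr1+/K228E brains, with a log2 fold change of -0.49 ± 0.20 (SE; limma unadjusted p = 0.0263, adjusted p = 0.999, exact permutation p = 0.0476, two-sided). The genotypes overlapped, since the 2 highest heterozygotes lay within the WT range. Without the highest WT embryo (139.9) the log2 fold change was -0.34 and the unadjusted threshold was missed. Homozygotes, at 78.9 ± 17.4, lay between the other genotypes and overlapped both.

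The comparison of Tbr1K228E/K228E with WT asked the same of the homozygous state. No member of 83 passed the adjusted threshold, where 0.127% of all tested genes did (21 genes). Before adjustment, 5 members, or 6.02%, had a p under 0.05, where 3.23% of all tested genes met it. Kcnt2 and Kcnh7 were higher, against a background of 1.48% of genes, and Kcng1, Kcnv1 and Kcnq3 were lower, against 1.76%. Only for Kcnt2, 1 of 83 members, did the embryos of the genotypes not overlap, where 0.594% of all genes did not. Overall direction was even, with 42 members higher and 41 lower against 48.7% higher among all genes, and median log2 fold changes of 0.01 over members and -0.00 over all. Without WT embryo 4 the split became 52 higher and 31 lower, with a median of 0.05.

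Kcnt2, which encodes the sodium-activated channel Slick, had the smallest unadjusted p of the members in this comparison. The gene (ENSMUSG00000052726) lies on GRCm38 chromosome 1, plus strand, from 140246158 to 140612067. Its normalized read counts were 304, 261, 286, 319 and 312 in WT, 295, 318, 274, 258 and 329.7 in Tbr1+/K228E, and 335, 351, 509.7, 441 and 442 in Tbr1K228E/K228E brains. Every homozygote was above every WT and every heterozygous embryo, although the lowest homozygote (335) and the highest heterozygote (329.7) were close. Against WT the log2 fold change was 0.47 ± 0.11 (SE), or 38.7% higher, with a limma unadjusted p of 0.000768 and an adjusted p of 0.317. The exact permutation p of 0.00794 (two-sided) is the smallest that 5 against 5 embryos can give. The difference did not pass the adjusted threshold, and over fits without 1 embryo each its adjusted p ran from 0.121 to 0.849. Kcnt1, for the related channel Slack, did not show it, at 2011 ± 375 in WT and 2104 ± 296 in homozygotes (log2 fold change 0.07). Of the 8 genes of the calcium- or sodium-activated class, Kcnu1 included, 5 were higher and 3 lower than in WT.

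The 250 bases before the RefSeq start site of Kcnt2 are printed because this gene separated the homozygotes, and those of Kcnh7 beside them because that gene lies nearest to Tbr1. TBR1 binds DNA through a T-box domain whose sites are built on the letters AGGTGT, searched for here on both strands, so that ACACCT counts as the same motif. Capitals mark the motif, and the sequences run 5′ to 3′ on the strand of the gene in build GRCm38.p6 (RefSeq), at chr1:140245468-140245717 on the plus strand and chr2:63184288-63184537 on the minus strand.
Kcnt2: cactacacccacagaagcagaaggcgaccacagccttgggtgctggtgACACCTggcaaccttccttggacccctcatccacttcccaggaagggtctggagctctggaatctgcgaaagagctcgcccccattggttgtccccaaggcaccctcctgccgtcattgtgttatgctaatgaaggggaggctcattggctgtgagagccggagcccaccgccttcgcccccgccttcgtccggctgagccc
Kcnh7: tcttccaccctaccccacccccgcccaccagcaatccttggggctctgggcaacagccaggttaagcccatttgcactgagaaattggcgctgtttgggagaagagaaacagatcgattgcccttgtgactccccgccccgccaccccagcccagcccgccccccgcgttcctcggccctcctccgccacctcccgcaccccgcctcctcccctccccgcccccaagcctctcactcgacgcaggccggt
The Kcnt2 window held 1 match, at positions -202 to -197 from the start site, and the Kcnh7 window held none. These positions count from the RefSeq start site, which for Kcnt2 lies upstream of the GENCODE gene start given above. Both windows are rich in G and C, at 61.6% and 67.6%. Over windows from 250 bases before to 50 after a start site, AGGTGT was found in 13 of 90 windows of 65 matched members (14.4%) and in 13.7% of all 32851 windows, so the members held it about as often as other genes. The longer form GGTGTGA, which overlaps AGGTGT in a full site, was found in 4 of the 90 windows (4.44%, those of Kcna6, Kcnc1, Kcne2 and Kcnf1) and in 3.98% of all.

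Kcng1, the gene of the silent Kv6.1 subunit, was lower in homozygotes. It lies on chromosome 2, minus strand, from 168260117 to 168281736 (ENSMUSG00000074575). Values were 491, 562, 610.3, 341 and 509 in WT, 474, 651, 501, 585 and 487 in Tbr1+/K228E, and 276, 294, 403, 305 and 368 in Tbr1K228E/K228E brains. Every homozygote was below every heterozygote, and only WT embryo 4, at 341, lay inside the homozygous range. The log2 fold change against WT was -0.60 ± 0.15 (SE), or a decrease of 33.9% in the fitted level, with a limma unadjusted p of 0.00111, an adjusted p of 0.398 and an exact permutation p of 0.0238. Without WT embryo 4 it was -0.73, with an adjusted p of 0.0320. Over the 10 fits without 1 embryo each the adjusted p ran from that value to 1.00, and among these fits Kcng1 passed only without WT embryo 4.

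The values of Kcng1 are given beside the forebrain markers, whose part in the difference was not tested. WT embryo 4 had the lowest summed forebrain markers of all embryos, and Tbr1+/K228E embryo 2, the highest for Kcng1 at 651, was next to the highest for the markers at 46516. Homozygous embryo 3, with the highest sum, had 403 for Kcng1, and WT embryo 3, with a sum of 45547, had 610.3. Among homozygotes the order differed, with 294 in embryo 2 (sum 21845) and 276 in embryo 1 (sum 33506). With the forebrain marker score as a covariate, an alternative chosen after seeing the data, the log2 fold change of Kcng1 was -0.65 ± 0.08 (SE) against both WT (limma adjusted p = 0.00103) and heterozygotes (adjusted p = 0.00144). With hindbrain and meningeal scores as covariates it was -0.71 against WT (adjusted p = 0.0386). Leaving out both embryos with the lowest forebrain sums, WT embryo 4 and homozygous embryo 2, gave -0.69 with an adjusted p of 0.0922.

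**Figure D3:**
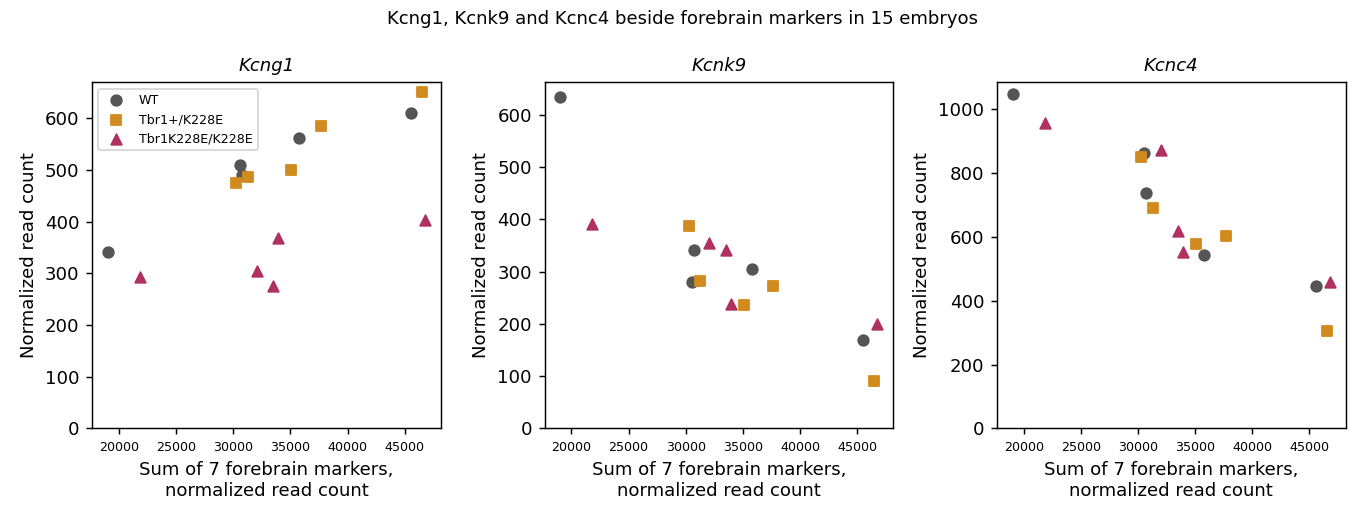
Normalized read count of Kcng1, Kcnk9 and Kcnc4 in each of the 15 embryos against the summed normalized read count of 7 forebrain markers, by genotype. Kcng1 runs from 341 to 651 in WT and heterozygous embryos and from 276 to 403 in homozygotes, and Kcnk9 and Kcnc4 are highest in WT embryo 4 (635 and 1048), which has the lowest sum.

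Kcnv1, for the silent Kv8.1 subunit, was also lower in homozygotes without passing the adjusted threshold. Values were 378, 435, 471, 395 and 454 in WT, 399, 517, 423, 484 and 355 in heterozygotes and 298, 291, 409.6, 400.0 and 297 in homozygotes. Of the homozygotes, 3 lay below every WT embryo and 2 inside the WT range. The log2 fold change against WT was -0.34 ± 0.12 (SE; limma unadjusted p = 0.0137, adjusted p = 1.000, exact permutation p = 0.0476).

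Kcng1 and Kcnv1 are 2 of 10 silent subunit genes, of which 9 were tested. In homozygotes against WT, 7 of the 9 had a negative and 2 a positive log2 fold change, with a median of -0.26. Of all 83 members 42 were higher and 41 lower, and of all tested genes 48.7% were higher. Kcng1 and Kcnv1 are part of the silent subunit count, which therefore gives them no support, and the remaining genes were named after their values were seen. The others lay at -0.75 for Kcng4, -0.28 for Kcns1, -0.26 for Kcng3, -0.06 for Kcns2, -0.00 for Kcng2, 0.06 for Kcnf1 and 0.32 for Kcns3, and none of these 7 had an unadjusted p under 0.05. Kcng4 varied most, from 0 in homozygous embryo 2 to 40.6 in WT embryo 5. The Kv2 pore gene Kcnb2 stood at -0.00. Against heterozygotes the silent genes split into 5 higher and 4 lower, with a median of 0.01.

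Kcnq3, for the Kv7.3 subunit of the M-current, was lower in homozygotes by a smaller amount. Values were 3805, 4006, 4949.6, 3945 and 4382 in WT, 3676, 4380.4, 3896, 4141 and 3816 in heterozygotes and 3385, 3358, 4189, 3835 and 3413 in homozygotes. The genotypes overlapped, with 3 of 5 homozygotes below all WT embryos. The log2 fold change was -0.21 ± 0.08 (SE; limma unadjusted p = 0.0154, adjusted p = 1.000, exact permutation p = 0.0635). With hindbrain and meningeal marker scores as covariates it was -0.28 ± 0.05 and passed, with an adjusted p of 0.0207, while with the forebrain score it was -0.24 with an adjusted p of 0.187. Kcnq5, another gene of the M-current, stood at 496 ± 45.3 in WT and 433 ± 73.1 in homozygotes (log2 fold change -0.21).

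Kcnh7, for the ERG3 channel (Kv11.3), was higher in homozygotes. Of the 10 members on chromosome 2 it lay nearest to Tbr1, 0.879 Mb away, from 62693414 to 63184287 on the minus strand. Values were 1553, 1659, 2124, 1837 and 1856 in WT, 1714, 2141, 1721, 2028 and 1780.2 in heterozygotes and 1860.3, 1920.1, 2528, 2286 and 2161 in homozygotes. All 5 homozygotes were above 4 of the 5 WT embryos, and 3 were above all. The log2 fold change was 0.25 ± 0.10 (SE; limma unadjusted p = 0.0208, adjusted p = 1.000, exact permutation p = 0.0397), and heterozygotes stood at 0.06 against WT. The next member along the chromosome, Kcnj3 at 6.20 Mb, stood at 781 ± 70.7 in WT and 803 ± 76.0 in homozygotes (0.04). The other 8 lay at least 35.9 Mb from Tbr1. Kcng1 was among them at 106 Mb, and Kcnk15 was too low to test.

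**Figure D4:**
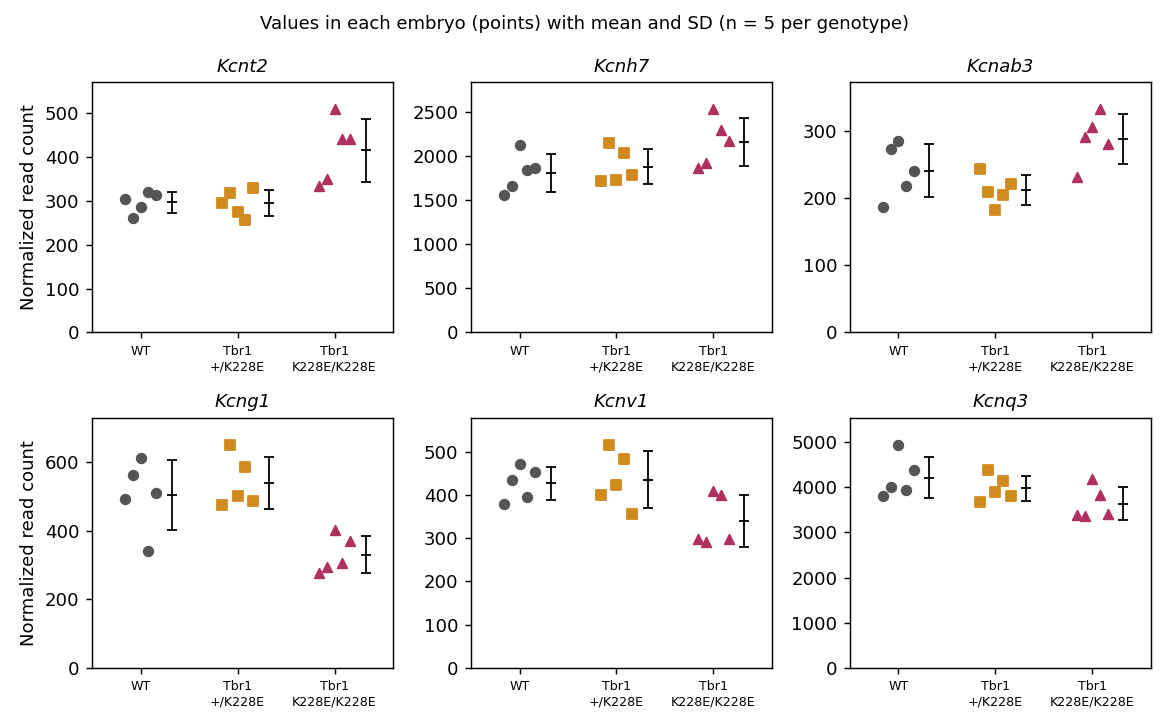
Normalized read count of 6 potassium channel genes in each of 15 embryos, with the mean and SD of each genotype (n = 5) beside the points. In the upper row Kcnt2, Kcnh7 and Kcnab3 have higher means in homozygotes, and in the lower row Kcng1, Kcnv1 and Kcnq3 have lower means, and the Kcnt2 homozygotes (335 to 509.7) alone clear both other genotypes upward.

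The homozygous and heterozygous brains were compared to separate 2 mutant copies from 1. The homozygotes are the same embryos as above, and each of the other comparisons also shares embryos with this one. No member of 83 passed the adjusted threshold, where 0.0788% of all tested genes did (13 genes). Before adjustment, 8 members (9.64%) had a p under 0.05, where 3.3% of all tested genes met it. Of these, Kcnt2, Kcnab3, Kcnab1 and Kcnh2 were higher in homozygotes, against a background of 1.71% of genes, and Kcng1, Kcnq5, Kcnv1 and Kcnj4 were lower, against 1.58%. For 3 members, Kcng1, Kcnt2 and Kcnab1, or 3.61%, the genotypes did not overlap, where 0.878% of all genes did not. In sign, 59 members were higher and 24 lower in homozygotes, against 50.2% higher among all tested genes, with medians of 0.06 and 0.00. Without homozygous embryo 4 the split was 48 to 35, and with hindbrain and meningeal scores as covariates it was also 48 to 35.

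For Kcng1 the log2 fold change against heterozygotes was -0.72 ± 0.15 (SE; limma adjusted p = 0.168) and for Kcnt2 0.48 ± 0.11 (adjusted p = 0.310), both with the smallest exact permutation p possible, 0.00794. Kcnv1 stood at -0.37 (unadjusted p = 0.00962, adjusted p = 0.996). These 3 had heterozygous means within 1 SD of WT.

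The genes for the beta subunits of Kv1 channels, 3 in number, all had positive log2 fold changes in homozygotes against heterozygotes. So had 59 of the 83 members, among them all 8 of the calcium- or sodium-activated class, and the common sign does not set the beta subunits apart. Kcnab3 read 187, 273, 284, 218 and 240.0 in WT, 243, 208, 182, 204 and 221 in heterozygotes and 232, 290.1, 305, 332 and 279.7 in homozygotes. A single homozygote fell within the heterozygous range, and the log2 fold change was 0.44 ± 0.13 (SE; limma unadjusted p = 0.0031, adjusted p = 0.726, exact permutation p = 0.0159). WT lay between, with a log2 fold change of 0.26 in homozygotes and -0.17 in heterozygotes. Kcnab1 read 273, 277, 268, 266 and 252 in heterozygotes and 309, 311, 322, 313 and 310.2 in homozygotes, a tight separation of 0.23 ± 0.08 (adjusted p = 0.996, exact permutation p = 0.00794). Its WT values of 259.5, 289.7, 245, 341 and 269 spread over both. Kcnab2 was at 0.09 ± 0.15.

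Among the lower genes, Kcnq5 stood at 569 ± 90.7 in heterozygotes and 433 ± 73.1 in homozygotes, with a log2 fold change of -0.40 ± 0.13 (SE; limma unadjusted p = 0.00676, adjusted p = 0.966). Its WT mean of 496 ± 45.3 lay between them. Kcnj4, for the inward rectifier Kir2.3 of forebrain neurons, read 34.3, 89.9, 65.0, 41.7 and 35.1 in heterozygotes and 25.05, 18.7, 44.6, 28.5 and 30.1 in homozygotes, at -0.79 ± 0.30 (unadjusted p = 0.0203, adjusted p = 0.996). Its highest embryo was heterozygous embryo 2, without which the value was -0.57. Kcnh2, for the ERG1 channel, was higher at 1374 ± 130 against 1165 ± 161 (0.24 ± 0.11, unadjusted p = 0.0426), and it was lowest in heterozygous embryo 2 at 993.

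The subfamilies are given by the values of their genes in homozygotes against WT. Of the 14 Kcnj genes 8 were higher and 6 lower, with log2 fold changes from -0.53 for Kcnj13 to 0.26 for Kcnj2, the gene of the classical inward rectifier Kir2.1, and none passed. The 10 tested Kcnk genes ranged from -0.34 for Kcnk6 to 0.21 for Kcnk4 and had a median of 0.04. Kcnk2 was the steadiest of the 83 members, with a pooled SD between embryos of 0.07 on the log2 scale and values from 1363 to 1626. The 4 Kcnc genes of Kv3 channels lay between -0.06 and 0.02 and the 3 Kcnd genes of Kv4 channels between -0.04 and 0.15. For the 4 Kcnip genes that join Kv4 the range was -0.13 to 0.03, for the 6 tested Kcna genes -0.11 to 0.19, and for the 8 Kcnh genes -0.08 to 0.38, the highest being Kcnh3. Per kb, the summed Kcng family was 144 ± 26.1 in WT, 149 ± 21.4 in heterozygotes and 102 ± 10.6 in homozygotes, with Kcng1 as its main gene.

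Several members differed more between embryos of a genotype than between genotypes. Spread between embryos of a genotype was wider for these genes than for most: the median pooled SD was 0.21 on the log2 scale over the 83 members and 0.15 over all tested genes, and 13 members reached 0.5 (15.7%, where 13.2% of all genes did). The widest was Kcne2, a single-pass subunit gene known from choroid plexus epithelium, with a pooled SD of 1.89. It read 332, 194, 11.9, 44.8 and 199 in WT, 365, 314, 259, 98.0 and 140.0 in heterozygotes and 206, 241, 84.5, 3.39 and 282 in homozygotes. Kcnj13, for the epithelial channel Kir7.1, also of choroid plexus, ran from 2.12 in homozygous embryo 4 and 6.47 in WT embryo 3 to 70.8 in heterozygous embryo 2. Both genes were lowest in homozygous embryo 4 and next to lowest in WT embryo 3, the embryos with the smallest sums over the choroid plexus markers Ttr, Folr1, Kl and Aqp1 (103 and 383). Ttr was the largest part of the sum except in homozygous embryo 4, where it read 29.2. Kl did not follow the sum, at 45.6 in that embryo and lowest in homozygous embryo 3 at 25.4. The fitted differences between genotypes, such as 1.15 ± 1.06 for Kcne2 in heterozygotes against WT (limma unadjusted p = 0.294), were smaller than this spread.

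**Figure D5:**
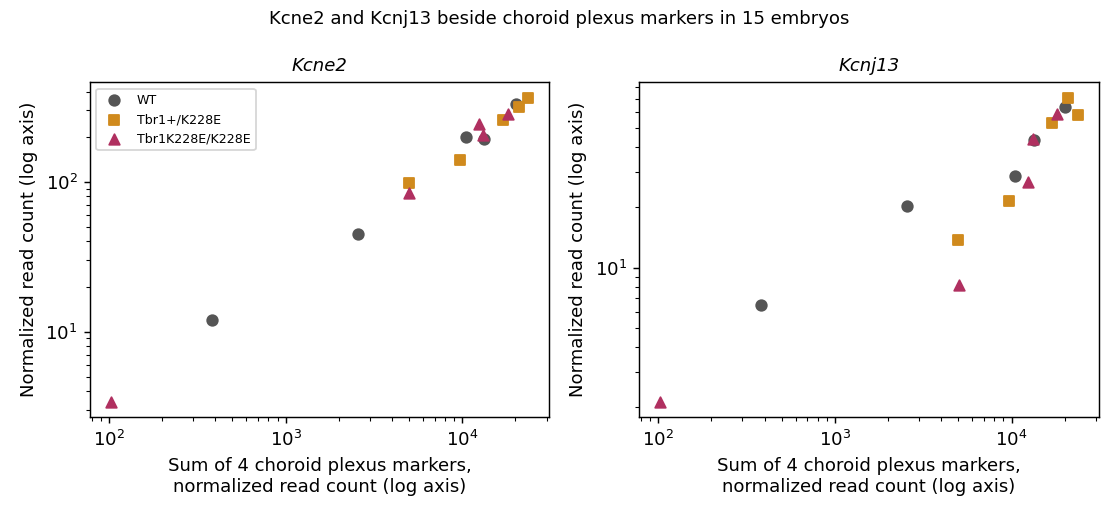
Normalized read count of Kcne2 and Kcnj13 in each of 15 embryos against the summed normalized read count of 4 choroid plexus markers, by genotype, with log scales on both axes. Both genes are higher in embryos with a higher marker sum in all 3 genotypes, from 3.39 and 2.12 in the embryo with the lowest sum (103).

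Kcnk9, for the leak channel TASK-3, and Kcnc4, for Kv3.4, were highest in the embryo with the lowest forebrain markers. Kcnk9 ran from 91.2 in heterozygous embryo 2 to 635 in WT embryo 4, and Kcnc4 from 304 to 1048 in the same embryos, which had Hox sums of 0 and 3250 and forebrain sums of 46516 and 19038. Between genotypes neither had an unadjusted p under 0.05, with log2 fold changes in homozygotes against WT of -0.10 for Kcnk9 and -0.06 for Kcnc4. Kcnc4 did not follow the Hox sum in every embryo, at 863 in WT embryo 5 (Hox sum 4.80) and 850 in heterozygous embryo 1 (Hox sum 3727). Kcnq1, for the Kv7.1 channel, varied from 10.1 to 106 across embryos with a pooled SD of 1.15. The glial gene Kcnj10 read 663, 657, 684, 897 and 672 in WT, where embryo 4 was again the highest, and 636 ± 53.4 in heterozygotes and 638 ± 48.5 in homozygotes. That embryo also had the highest sum of the 4 radial glia and astrocyte markers, at 28951, where the other 14 embryos lay between 20888 and 24656. The log2 fold change of Kcnj10 was -0.16 in both mutant genotypes, and without WT embryo 4 it was -0.08 in heterozygotes and -0.07 in homozygotes.

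Proteins that work with these channels were read from the same fit, as a list of 26 genes that holds partner subunits, anchors, the related Hcn channels and the repressor gene Rest. Of the 25 tested, none passed the adjusted threshold in any comparison. Rest, which represses neuronal genes including channel genes, was the only gene with an unadjusted p under 0.05. It was lower in homozygotes at 664 ± 44.4 against 761 ± 53.7 in WT (log2 fold change -0.20 ± 0.06, limma adjusted p = 0.877) and also lower against heterozygotes (-0.17). The genotypes overlapped in both comparisons. This was 1 gene of 25, where 3.23% of all tested genes met the unadjusted threshold against WT and 3.3% against heterozygotes. Among the partners of Kv4, Dpp6 stood at 0.01 and Dpp10 at -0.04 in homozygotes against WT. The sulfonylurea receptor genes that pair with Kir6 pores stood at 0.12 for Abcc8 and -0.10 for Abcc9.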

How the data were processed

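RNA of 15 embryonic brains was sequenced by the authors as 101-bp paired-end reads after TruSeq library preparation (kit version 2). Per the methods and the submitters' processing notes, the authors estimated read counts with Salmon 0.11.2 on GRCm38 with GC bias correction, summed them to genes with tximport and divided them by DESeq2 1.22.2 size factors in R 3.5.3. The annotation release is not given in the sources used here. The deposited signal values are these normalized read counts, which are not whole reads, so no count model was used. Sums of the normalized values lay between 30535909 and 31768508 per embryo. Sequencing depth was read only approximately, from the spacing of the lowest values, which put the embryos between 26.3 M and 37.9 M reads.

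Gene symbols and exon lengths came from GENCODE M21 (19452 of 19475 genes matched). A mean normalized read count of 5 or more was required, and log2(value + 1) was tested in 1 limma 3.58.1 fit over all embryos (R 4.3.3, empirical Bayes with trend), with Benjamini-Hochberg adjustment over all 16507 genes. A fold change on this scale understates the change of low genes. Single genes also had a two-sided exact permutation test. The script was tested on simulated data. Embryos carry separate labels, and beyond that nothing states litters, so p-values measure the spread between these embryos. Their correlation within a genotype was 0.971 to 0.988, and no column was a copy of another.

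Named genes were, in each comparison, the 6 members with the smallest p in each direction, the highest member per kb of each subfamily, every member on the chromosome of Tbr1, and 12 genes chosen by role. Kcnk9, Kcnc4, Kcnq1, Kcnd3, the remaining silent subunits, Kcnb2 and the ends of subfamily ranges were named after their values were seen. The members and gene lists were chosen with earlier results of these data known. Alternatives covered the pseudocount (0.1 and 10), the filter, scaling, covariates, the replicate block, robust variance, the samples in the fit and leaving out each embryo, and 2 were added after seeing the data: a forebrain score covariate, and a fit without the embryos with the lowest forebrain sums. Some members and markers enter the counts, sums and medians but are not reported here.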

Additional observations from a re-analysis of the deposited data

Results flagged for a closer look

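In 24 named genes, each of the 3 groups of 5 embryos was examined for 1 embryo whose gap to its nearest neighbour took most of the group's range. Of 72 groups, 5 were picked out, where chance gives about 1 in 20. Kcne2 was low in Tbr1K228E/K228E embryo 4 at 3.39, with the other homozygotes from 84.5 to 282, and that embryo also had the lowest choroid plexus marker sum. Kcnj10 was high in WT embryo 4 at 897, with the others from 657 to 684, beside the lowest forebrain sum and the highest sum of radial glia and astrocyte markers. Kcnh3, for an ELK-type channel, was high in WT embryo 5 at 468 (others 253 to 302) and in Tbr1K228E/K228E embryo 3 at 572 (others 347 to 395). The latter was the homozygote with the highest forebrain sum. WT embryo 5 had a sum of 30555, while WT embryo 3, with 45547, had 302 for Kcnh3. Kcnn1, for the small-conductance channel SK1, was high in Tbr1K228E/K228E embryo 1 at 764, with the others from 648 to 651. The part of tissue composition in these values was not tested.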

How the results depend on the processing

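The number of members past an adjusted p of 0.05 was 0 in each comparison. In homozygotes against WT it was 2 with hindbrain and meningeal score covariates (Kcnq3 and Kcng1), 1 with the forebrain score (Kcng1) and 0 to 1 over fits without 1 embryo each (Kcng1 without WT embryo 4). In homozygotes against heterozygotes it was 1 with the forebrain score (Kcng1). The cause was not tested. In every other alternative run it stayed at 0. Of 824 single-gene values, 819 kept their direction and side of the threshold, 5 passed it newly (4 for Kcng1, 1 for Kcnq3) and 0 changed sign. All 69 median log2 fold changes stayed within the SD between embryos (0.07) of the main medians. That margin is wider than the main medians themselves (-0.04, 0.01 and 0.06), so it does not show that their signs hold. In homozygotes against WT the median was -0.04 without WT embryo 1 and 0.05 without WT embryo 4. Counts at an unadjusted p under 0.05 moved over 1.5 times in 16 of 69 cases, such as 10 against 5 with hindbrain and meningeal covariates in homozygotes against WT, and 0 to 3 against 1 in heterozygotes against WT without 1 embryo. Same-numbered deviations correlated from -0.232 to 0.506, and the highest correlation with another number ran from 0.0735 to 0.377. These values cannot decide whether replicate numbers pair the embryos, since litters are not stated. With the replicate number as a block, 0 members passed in each comparison, while calls over all genes went from 13 to 2 in homozygotes against heterozygotes and from 21 to 16 against WT. Precision is limited by 5 embryos a genotype. Their tissue marker sums also differed widely, and the part of this in the spread was not tested.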
